A study of Mus musculus with 10 samples.

Results

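Respiratory complexes II to V carry electrons from succinate and from ubiquinol to oxygen and use the resulting proton gradient to make ATP. Complex II (succinate dehydrogenase) also belongs to the citric acid cycle, complex III passes electrons to cytochrome c, complex IV (cytochrome c oxidase, COX) reduces oxygen, and complex V is the ATP synthase. Skeletal muscle makes its own isoforms of several small COX subunits in place of those found in most tissues. The genes described here are those in the nuclear genome, chosen by symbol: *Sdha*, *Sdhb*, *Sdhc* and *Sdhd*, the *Uqcr* genes with *Cyc1*, cytochrome c (*Cycs*), the COX subunit genes numbered from *Cox4* to *Cox8*, and the *Atp5* genes. They came to 49 of the 24421 rows of the count table: 4 for complex II, 9 for complex III, 1 for cytochrome c, 18 for complex IV and 17 for complex V. The subunits encoded by the mitochondrial genome were not analysed here.

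Polyadenylated RNA was counted in the gastrocnemius-plantaris complex, a pair of calf muscles, of 10 male C57BL/6 mice aged 12 weeks. All mice had fasted for about 16 h. The saline group (mice 32, 34, 36, 38 and 39) received 0.9% saline into the peritoneum, at equal volume, and the ethanol group (mice 51, 57, 59, 60 and 62) received ethanol at 3 g/kg by the same route. Muscle was collected 1 h after the injection, under isoflurane. Each library is 1 mouse, and libraries are named by group and mouse number.

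Totals ran from 32038927 to 42654771 counts a library in saline and from 20317959 to 31252438 in ethanol, so the ranges of depth did not meet. Markers of fast muscle fibres dominated, with the myosin gene *Myh4* at 43319 ± 6177 CPM (counts scaled by TMM to a common library size) with saline and 45895 ± 3719 CPM with ethanol (n = 5 each, ± SD). Of 4 cardiac markers, only *Myh6* passed the low-count filter, and the summed level of the 4 did not exceed 4.21 CPM in any library. In whole muscle, fewer cells of a type and less RNA per cell cannot be told apart.

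The isoform pairs of complex IV are compared in most detail, so the DNA just upstream of 5 of them is shown first. An upstream window was found for 38 of the 49 genes in the RefSeq sequence table (GRCm38.p6). Each window below is the 250 bases before the start that RefSeq gives, read 5′ to 3′ on the strand of the gene. GENCODE places the starts of *Cox6a1*, *Cox7a2* and *Cox7a1* further upstream, so the last bases of these 3 windows lie inside the GENCODE genes. Over the 38 genes, the bases after the RefSeq start were found near the start of a GENCODE transcript for 31. *Cox6a1*, *Cox7a2* and *Cox8a* are the ubiquitous isoforms, and *Cox7a1* and *Cox8b* are muscle isoforms. Capitals mark matches to GCGCA and GCGC with 1 base of any kind between them, a core of the site of NRF1, a factor known for driving nuclear genes of respiration, or to CAGCTG, an E-box of the kind that myogenic factors use.
Cox6a1, chr5:115348959-115349208, minus strand: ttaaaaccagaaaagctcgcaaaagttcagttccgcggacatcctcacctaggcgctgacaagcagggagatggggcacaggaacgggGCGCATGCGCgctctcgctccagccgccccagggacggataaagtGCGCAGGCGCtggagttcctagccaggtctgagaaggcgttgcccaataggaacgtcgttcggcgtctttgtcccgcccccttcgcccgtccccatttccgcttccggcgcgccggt
Cox7a2, chr9:79759854-79760103, minus strand: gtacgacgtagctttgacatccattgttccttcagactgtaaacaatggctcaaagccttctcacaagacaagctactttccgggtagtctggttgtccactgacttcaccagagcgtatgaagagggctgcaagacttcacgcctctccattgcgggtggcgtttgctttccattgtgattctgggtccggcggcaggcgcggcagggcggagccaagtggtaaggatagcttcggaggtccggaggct
Cox7a1, chr7:30183921-30184170, plus strand: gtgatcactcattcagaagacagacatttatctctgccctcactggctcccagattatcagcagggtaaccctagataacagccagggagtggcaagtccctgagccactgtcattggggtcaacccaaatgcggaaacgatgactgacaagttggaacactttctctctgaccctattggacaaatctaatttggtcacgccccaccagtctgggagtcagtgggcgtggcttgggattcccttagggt
Cox8a, chr19:7217617-7217866, minus strand: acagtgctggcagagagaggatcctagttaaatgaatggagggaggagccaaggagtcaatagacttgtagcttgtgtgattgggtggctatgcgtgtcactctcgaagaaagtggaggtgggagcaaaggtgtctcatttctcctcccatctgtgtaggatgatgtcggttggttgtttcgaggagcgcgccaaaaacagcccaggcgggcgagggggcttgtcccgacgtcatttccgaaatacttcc
Cox8b, chr7:140900447-140900696, minus strand: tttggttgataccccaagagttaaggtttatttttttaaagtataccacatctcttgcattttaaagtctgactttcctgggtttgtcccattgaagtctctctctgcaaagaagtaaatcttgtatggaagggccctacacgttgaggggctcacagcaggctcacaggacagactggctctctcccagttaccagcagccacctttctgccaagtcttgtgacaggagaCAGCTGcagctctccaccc

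The windows of the ubiquitous isoforms held 26, 14 and 11 CpG pairs (*Cox6a1*, *Cox7a2* and *Cox8a*), and those of the muscle isoforms *Cox7a1* and *Cox8b* held 4 and 1. The median was 14 over the 38 matched genes and 6 over the 27025 genes of the table. The NRF1 core, searched on both strands, occurred in 7 of the 38 windows (18.4%) and in 4.23% of all genes. *Cox6a1* held it at positions -162 to -153 and -117 to -108, counted from the base before the start as -1. The other 6 genes with a match were *Sdha*, *Sdhd*, *Atp5c1*, *Atp5g2*, *Atp5h* and *Atp5k*. The E-box CAGCTG was found in the windows of *Cox8b* (-19 to -14) and *Atp5b*, or 5.26% of the matched genes against 14.7% of all genes. CCGGAAGT, a site of ETS factors such as GABP, was found in 3 of the 38 windows (7.89%, against 3.23% of all genes). TCAAGGTCA, the site of the ERR receptors, was in 1 window (2.63%, against 0.422%), AAGATGGC, a site of YY1, was in 2 (5.26%, against 1.83%), and the MEF2 consensus was in 0 (against 3.42%). A match describes the letters of the window and not binding.

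Together these genes took 2.38 ± 0.26% of the counts of saline libraries and 2.39 ± 0.20% of those of ethanol libraries (± SD, n = 5 each). Levels of different genes are given as CPM per kb, which divides the CPM by the length of the longest principal coding transcript in GENCODE M21. *Atp5b*, the catalytic beta subunit of the ATP synthase, stood at 1827 CPM per kb over the 10 libraries, followed by *Cox6a2* at 1198 and *Cox4i1* at 1178. Next came *Cox8b* at 1122, the epsilon subunit gene *Atp5e* at 1072 and *Atp5a1*, the alpha subunit gene, at 1032. The order depends on the length used: per kb of all exons joined, *Cox6a2* stood at 1198, *Cox8b* at 1122 and *Atp5b* at 826. The muscle isoforms *Cox6a2* and *Cox8b* were among the 4 highest genes by the longest principal, the shortest principal and the joined exon lengths. In complex II, *Sdhb*, the iron-sulfur subunit, stood at 419 CPM per kb and *Sdha* at 344, but at 214 and 242 by joined exons. In complex III, the small subunit genes *Uqcrb* and *Uqcr10* stood at 581 and 577, and at 355 and 429 by joined exons. By the longest principal transcript the lowest levels in these complexes were 112 for *Sdhc*, a membrane anchor, and 284 for *Uqcrc2*, a core protein. The choice of transcript also moves some values: *Uqcrq* stood at 293 with its longest principal transcript and at 1101 with its shortest, and *Atp5g1* at 102 and 810.

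The muscle isoforms exceeded their ubiquitous partners in all 10 libraries. *Cox6a2* (chr7:128205435-128206387, GRCm38, GENCODE M21, as are the gene positions below) stood at a median of 21.5 times the level per kb of *Cox6a1* (chr5:115345642-115348981), with a range of 18.2 to 26.9 over libraries. *Cox8b* (chr7:140898945-140900446) stood at 14.1 times the level of *Cox8a* (chr19:7215153-7217616), with a range of 10.7 to 16.8. *Cox7a1* (chr7:30184144-30186078) stood at 3.78 times the level of *Cox7a2* (chr9:79755361-79759878), with a range of 3.42 to 4.15. The muscle form therefore made up 95.9 ± 0.40% of the *Cox6a* pair, 93.4 ± 0.50% of the *Cox8* pair and 78.7 ± 0.87% of the *Cox7a* pair per kb in saline (SD, n = 5). In ethanol the shares were 95.2 ± 0.54%, 92.9 ± 1.23% and 79.3 ± 1.06% (SD, n = 5).

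**Figure D1:**
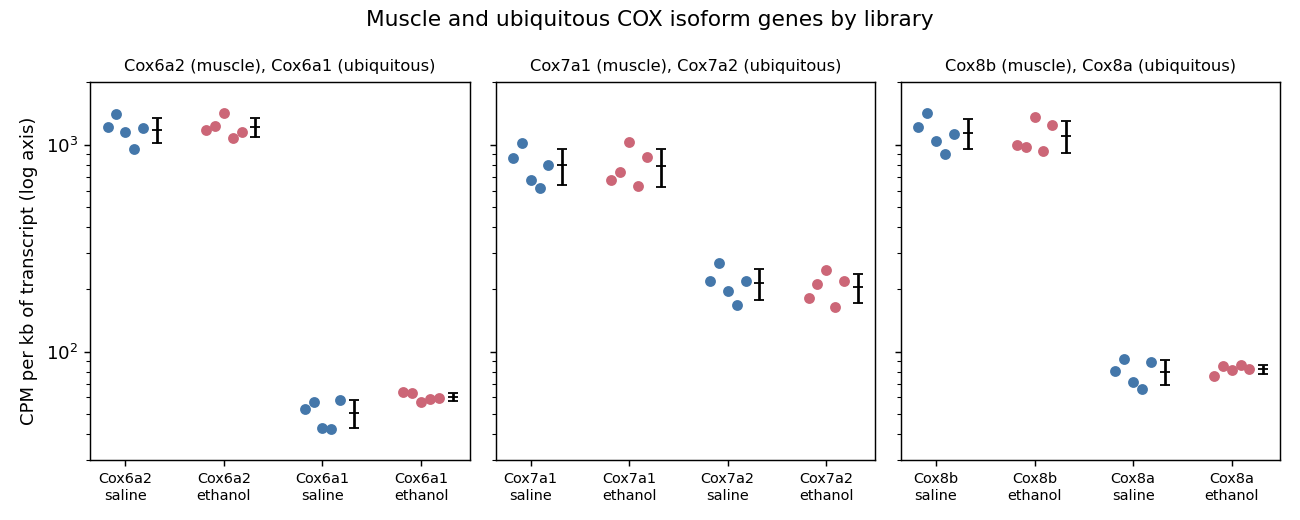
Level of the muscle and ubiquitous COX isoform genes in each library, in CPM per kb of transcript on a log axis, with saline mice in blue and ethanol mice in red. Each point is 1 mouse and the bars beside them are the mean and SD. The muscle form stands above its partner in every library, by a median of 21.5, 3.78 and 14.1 times from left to right.

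Isoforms known from other tissues were scarce. *Cox4i2*, the isoform of lung and of hypoxic cells, was at 2.50 ± 0.28 CPM with saline and 2.45 ± 0.40 CPM with ethanol (n = 5 each, ± SD). *Cox6b2*, a testis isoform, stood at 0.37 ± 0.14 and 0.43 ± 0.11 CPM, or 8 to 21 counts a library. *Cox7b2* and *Cox8c*, also testis isoforms, had 0 counts in all 10 libraries, which allows up to 0.142 CPM in the shallowest library (3 counts). These limits cover counting error only. The c subunit of the ATP synthase rotor is encoded by 3 genes that give the same mature protein. By the shortest principal transcripts *Atp5g3* made up 40.0 ± 0.57%, *Atp5g1* 34.4 ± 0.62% and *Atp5g2* 25.5 ± 1.08% of their summed level per kb in saline (SD, n = 5), and 40.5 ± 0.75%, 34.5 ± 0.89% and 25.1 ± 0.91% in ethanol. With the longest principal transcripts the saline shares were 66.7%, 7.34% and 26.0%, so the order of *Atp5g1* and *Atp5g2* depends on the length used.

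The comparison of ethanol with saline asked which of these transcripts differed 1 h after the injection. None of the 47 tested genes passed an FDR of 0.05 by edgeR's quasi-likelihood test over all 13180 tested genes, of which 0% passed. At an unadjusted p under 0.05, 1 gene was higher in ethanol, against 6.22% of all tested genes, and 0 were lower, against 5.91%. DESeq2 called 0 of 46 genes that had an adjusted p, against 0.454% of all genes. Limma-voom called 0 of 47, and 0 of all tested genes. The groups did not overlap for 0 of the 47 genes, against 2.18% of all tested genes.

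The intervals give the size of change that these data allow. The 95% interval of the log2 fold change lay between -0.5 and 0.5 for 46 of the 47 genes, against 66.8% of all tested genes. The remaining gene was *Cox6b2*, at 0.21 with an interval from -0.45 to 0.87. Among the 46 genes at 2 CPM or more, the lowest interval end was -0.46 for *Atp5e*, a fall of 27.2%, and the highest was 0.47 for *Cox6a1*, a rise of 38.3%. The median half-width was 0.24 log2 units over the 47 genes and 0.25 over all tested genes. It was 0.20 over the 1433 tested genes at 100 CPM or more, where 41 of the 47 lie. The intervals were thus wider than the median of genes at a like level.

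**Figure D2:**
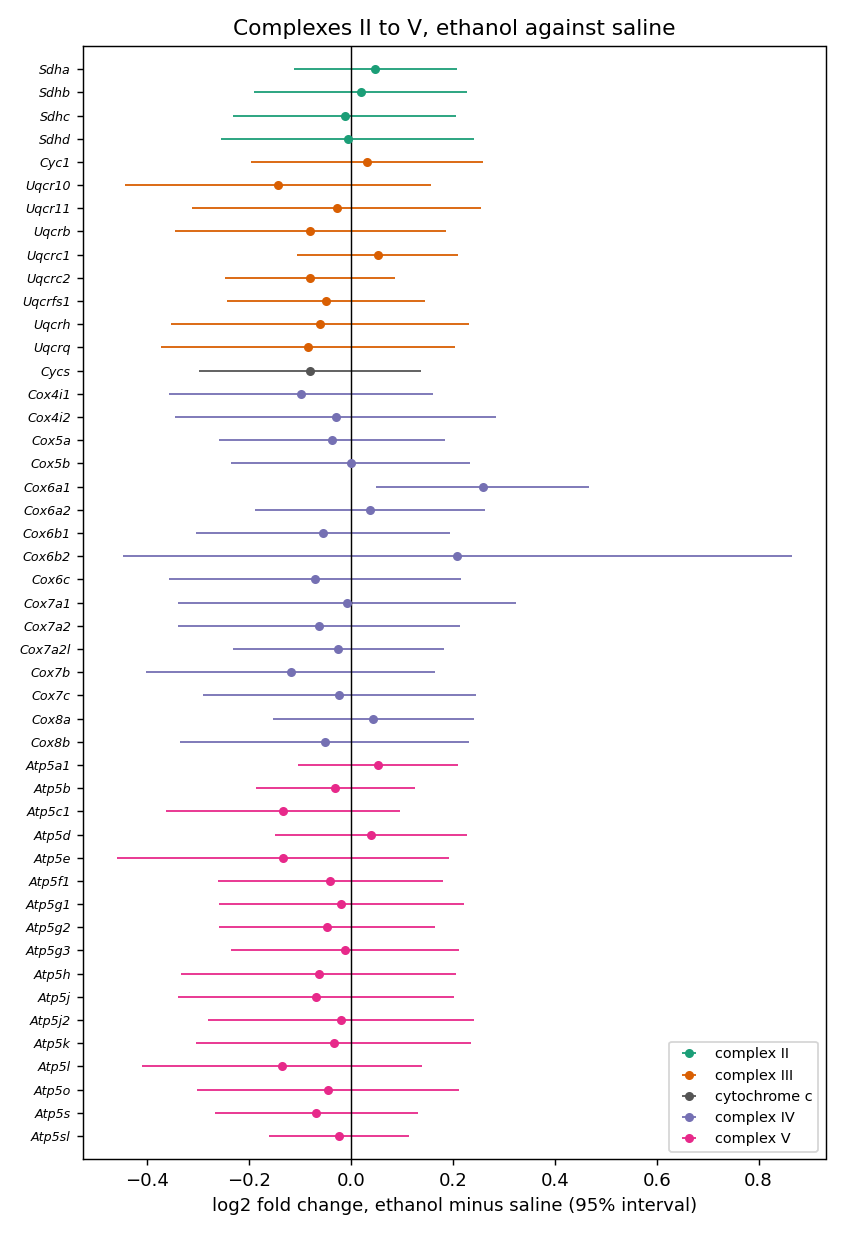
Log2 fold change of ethanol minus saline for the 47 tested genes, with 95% intervals from edgeR, coloured by complex. The interval of *Cox6a1* (0.26, from 0.050 to 0.47) is the one that leaves out 0.

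The sign of the fold change was negative for 37 of the 47 genes (78.7%), against 49.8% of all tested genes. This changed with total count scaling and with single mice, while DESeq2 also gave 37 and limma-voom gave 36. With total count scaling 22 of 47 were negative (46.8%, against 39.7% of all tested genes), and their median log2 fold change moved from -0.034 to 2.81e-04. The median of all tested genes moved in the same direction, from 9.56e-04 to 0.040. Without saline 34 there were 13 negative genes (27.7%, against 47.4% of all tested genes), and without ethanol 60 there were 19 (40.4%, against 49.1%). Without ethanol 51 there were 27 (57.4%, against 49.0%). The count rose to 42 without saline 38 (89.4%, against 50.2%). It was 40 without saline 36 and also without ethanol 59 (85.1% each, against 51.4% and 52.0%). Among genes at 100 CPM or more, where 41 of these genes lie, the median was -0.041 for them and -0.052 for the other 1392 genes. Negative values made up 34 of the 41 (82.9%) and 68.0% of the other genes. Since the count changed with single mice, no direction is given for these genes as a group.

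Complex II was the smallest set. Its median log2 fold change was 0.0063 over 4 genes. *Sdha* (chr13:74322254-74350280), the flavoprotein that oxidises succinate, had the smallest p of the complex. It stood at 944, 910, 1109, 1013 and 936 CPM in saline 32, 34, 36, 38 and 39 and at 990, 1001, 1050, 982 and 1054 CPM in ethanol 51, 57, 59, 60 and 62. All ethanol values lay inside the range of saline, and saline 36 was highest. This gave a log2 difference of 0.048 ± 0.075 (SE, edgeR FDR = 0.833). *Sdhb* was at 0.019 ± 0.097, *Sdhd*, the other anchor, at -0.0066 ± 0.12 and *Sdhc* at -0.012 ± 0.10, with overlapping groups.

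For complex III the median was -0.061, with 2 positive and 7 negative values. *Uqcrc2* (chr7:120635176-120659524) had the smallest p. It held 575, 606, 545, 524 and 516 CPM in the saline libraries and 491, 520, 578, 485 and 542 in the ethanol libraries, in the order of mice given above. Ethanol 51 and ethanol 60 fell below every saline library and the other ethanol libraries did not. Its log2 fold change was -0.081 ± 0.078 (SE, edgeR FDR = 0.698). *Uqcr10*, a small subunit, had the most negative value, -0.14 ± 0.14, and *Uqcrc1*, the other core protein, the most positive, 0.053 ± 0.074. *Cyc1*, which carries the haem of cytochrome c1, was at 0.032 ± 0.11, and the Rieske protein gene *Uqcrfs1* at -0.049 ± 0.090. *Cycs* (chr6:50562563-50566538), the mobile carrier between complexes III and IV, held 671, 801, 663, 581 and 690 CPM in saline and 554, 663, 728, 575 and 702 in ethanol. These groups overlapped, and the log2 fold change was -0.080 ± 0.10 (SE, edgeR FDR = 0.783).

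Complex IV had a median of -0.028 over 16 tested genes, 4 positive and 12 negative. *Cox6a1* was the gene with an unadjusted p under 0.05. It held 30.1, 32.6, 24.4, 24.1 and 33.3 CPM in saline 32, 34, 36, 38 and 39 and 36.4, 36.0, 32.7, 33.8 and 33.9 CPM in ethanol 51, 57, 59, 60 and 62. The means were 28.9 ± 4.41 and 34.6 ± 1.58 CPM (SD, n = 5 each). Of the 5 ethanol libraries, 4 lay above the highest saline library, and ethanol 59 lay just below it. The spread in saline came from saline 36 and saline 38, the lowest libraries of all. The log2 fold change was 0.26 ± 0.098 (SE, edgeR unadjusted p = 0.0187, FDR = 0.347), so the gene did not pass. It was 0.20 without saline 36 (unadjusted p = 0.0544), 0.20 without saline 38 (unadjusted p = 0.0507) and 0.20 without saline 36 and ethanol 60 (unadjusted p = 0.0680), each by edgeR. Over all 20 alternatives it ran from 0.18 to 0.31. The unadjusted p ran from 0.00751 (edgeR without saline 34) to 0.0725 (edgeR with the GC trend removed), and the gene passed FDR 0.05 in none of them.

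Other measures are given beside *Cox6a1*. Its transcript has a GC content of 58.8%, the third highest among these genes, and the slope of log2 CPM on GC content ran from -0.11 to 0.0068 per 10% GC in saline libraries and from 0.024 to 0.062 in ethanol libraries. After removal of the GC trend within libraries the log2 fold change of *Cox6a1* was 0.18 (edgeR unadjusted p = 0.0725). The ubiquitous isoform is also the form of non-muscle cells, and 9 of 9 adipocyte markers had positive fold changes, with summed levels of 449 to 633 CPM in saline and 596 to 1383 CPM in ethanol. The top of that range was ethanol 60 alone, the other ethanol libraries lay between 596 and 759 CPM, and ethanol 60 held 33.8 CPM of *Cox6a1*, within the range of the other ethanol libraries. Endothelial markers were positive for 4 of 4 (263 to 304 CPM in saline, 274 to 369 in ethanol) and fibroblast markers for 3 of 4 (781 to 1010 and 790 to 1098 CPM). The other ubiquitous isoforms were at 0.044 ± 0.092 (*Cox8a*) and -0.063 ± 0.13 (*Cox7a2*). The part of GC content and of other cells in the *Cox6a1* values was not tested.

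Ratios within a library do not depend on the library total, so the isoform pairs were also compared as log2 ratios of counts. Such ratios do not remove a trend on GC content. That content was 52.8% for *Cox6a2* and 58.8% for *Cox6a1*, 55.8% for *Cox8b* and 58.5% for *Cox8a*, and 54.7% for *Cox7a1* and 51.9% for *Cox7a2*. Its part in the ratios was not tested. The *Cox6a2* to *Cox6a1* ratio was 4.78, 4.88, 5.00, 4.74 and 4.61 in saline and 4.46, 4.54, 4.89, 4.44 and 4.53 in ethanol, in the order of mice given above. Apart from ethanol 59, every ethanol value lay below the lowest saline value. The difference was -0.23 (two-sided exact permutation p = 0.0714, adjusted p = 0.214 over the 3 pairs). Without ethanol 59 it was -0.31 (exact permutation p = 0.0159, adjusted p = 0.0476). That library alone overlapped saline, so leaving it out separates the groups and this p gives no support. Over the libraries left out singly, the adjusted p of the exact permutation ran from 0.0476 to 0.405. Without saline 36 and ethanol 60 the difference was -0.15. *Cox6a2* itself held 824, 959, 780, 645 and 815 CPM in saline and 802, 838, 969, 732 and 784 in ethanol, with overlapping groups. Its log2 fold change was 0.037 ± 0.11 (SE, edgeR FDR = 0.918).

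The *Cox8b* to *Cox8a* ratio ran from 3.05 to 3.33 in saline and from 2.81 to 3.46 in ethanol, so the ethanol range enclosed that of saline. The difference was -0.11 (exact permutation p = 0.413, adjusted p = 0.413). *Cox8b* held 439, 511, 376, 325 and 405 CPM in saline and 359, 349, 490, 334 and 450 in ethanol. *Cox8a* held 44.3, 50.7, 39.3, 36.2 and 48.7 CPM in saline and 41.8, 46.9, 44.6, 47.5 and 45.2 in ethanol. Both genes overlapped between groups, and *Cox8a* varied less among the ethanol mice than among the saline mice. The *Cox7a1* to *Cox7a2* ratio ran from 1.03 to 1.23 in saline and from 1.06 to 1.31 in ethanol, a difference of 0.054 (exact permutation p = 0.325, adjusted p = 0.413). *Cox7a1* held 338, 400, 264, 243 and 315 CPM in saline and 267, 290, 405, 248 and 342 in ethanol. *Cox7a2* held 144, 176, 130, 111 and 145 CPM in saline and 119, 139, 164, 108 and 145 in ethanol. Both members of the pair were highest in saline 34 and ethanol 59 within their groups. The most negative value of complex IV was that of *Cox7b*, a subunit gene on the X chromosome, at -0.12 ± 0.13. *Cox7a2l*, which helps to join complexes III and IV into supercomplexes and is not a subunit of complex IV alone, was at -0.025 ± 0.097.

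Complex V had a median of -0.041 over 17 genes, 2 positive and 15 negative. *Atp5c1* (chr2:10056016-10080510), the gamma subunit of the rotor stalk, had the smallest p. It held 777, 819, 634, 597 and 712 CPM in saline and 622, 607, 760, 550 and 688 in ethanol, and the groups overlapped. Its log2 fold change was -0.13 ± 0.11 (SE, edgeR FDR = 0.633). The largest negative value was -0.14 ± 0.13 for *Atp5l*, the membrane subunit g, and the largest positive was 0.053 ± 0.073 for *Atp5a1*. *Atp5b* had narrow groups, with 3654, 3753, 3599, 3298 and 3387 CPM in saline and 3408, 3387, 3668, 3214 and 3643 in ethanol. Its log2 fold change of -0.031 had an interval from -0.19 to 0.13.

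The c-ring genes followed one another from mouse to mouse. *Atp5g1* held 516, 575, 437, 412 and 489 CPM in saline and 424, 470, 583, 412 and 508 in ethanol. *Atp5g2* held 268, 301, 262, 223 and 274 CPM in saline and 246, 260, 294, 212 and 274 in ethanol. *Atp5g3* held 727, 799, 620, 564 and 676 CPM in saline and 607, 683, 775, 594 and 700 in ethanol. All 3 were highest in saline 34 and lowest in saline 38 within saline, and highest in ethanol 59 and lowest in ethanol 60 within ethanol. Their log2 fold changes were -0.019, -0.047 and -0.011. *Atp5s*, coupling factor B, and *Atp5sl*, named for its likeness to it, match the rule by symbol but are not subunits of the ATP synthase core. With saline they were at 13.9 ± 1.08 and 43.9 ± 1.06 CPM, and with ethanol at 13.3 ± 1.46 and 43.2 ± 2.49 CPM (n = 5 each, ± SD).

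The median within-group SD was 0.20 log2 units over the 47 genes, against 0.19 over all tested genes and 0.15 over those at 100 CPM or more. Most of these genes shared the differences between mice. Of the 46 genes at 2 CPM or more, 42 were highest among the saline libraries in saline 34 and 42 were lowest in saline 38. Within ethanol, 40 were highest in ethanol 59 and 38 lowest in ethanol 60. The summed level was 27625 CPM in saline 34, 20745 in saline 38, 27007 in ethanol 59 and 20857 in ethanol 60, with 21992 to 25034 in the other 6 libraries. After the group means were removed, the median correlation between pairs of these genes over the 10 libraries was 0.90. It is a description, since the genes were measured in the same libraries, and its cause was not tested. *Sdha* (median correlation -0.24) and *Cox4i2* (-0.40) did not follow the rest, and *Cox6a1* (0.47) followed it less than most.

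**Figure D3:**
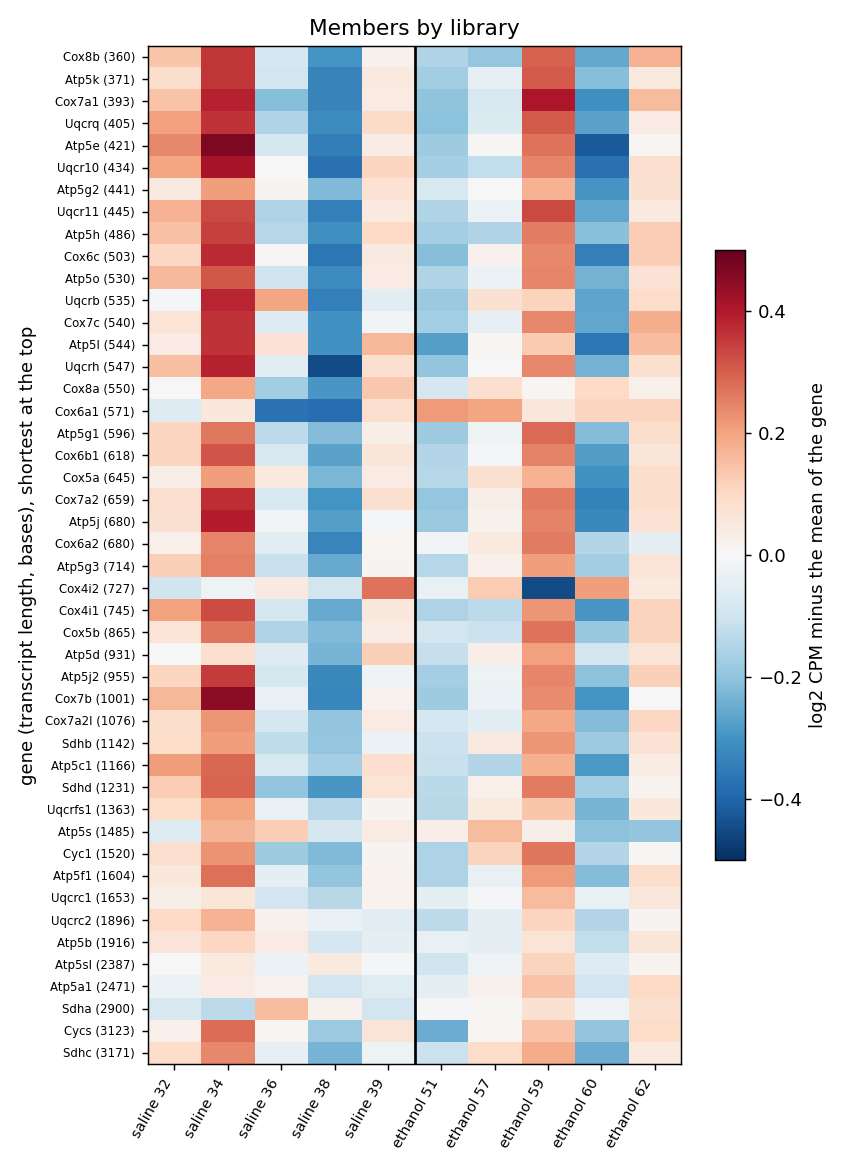
Log2 CPM of 46 genes in each library, minus the mean of the gene over all libraries, with genes ordered from the shortest to the longest principal transcript and a line between saline and ethanol. Saline 34 and ethanol 59 are red and saline 38 and ethanol 60 blue for most genes, most deeply among the short transcripts at the top.

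The size of this spread went with transcript length. The within-group SD of log2 CPM had a median of 0.23 for the 26 genes with a shortest principal transcript under 800 bases and 0.16 for the 20 longer ones. Over the 46 genes the rank correlation of SD with this length was -0.75, and with the longest principal transcript it was -0.67. Both are given as a description since the genes share libraries. The muscle isoform *Cox7a1* (393 bases) had the largest SD, 0.29, and *Atp5sl* (2387 bases) the smallest, 0.063. The highest library exceeded the lowest 1.85-fold for *Atp5e* (421 bases), 1.18-fold for *Atp5a1* (2471 bases) and 1.17-fold for *Atp5b* (1916 bases). *Cycs* (3123 bases) and *Sdhc* (3171 bases) were long in the annotation and had SDs of 0.17.

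**Figure D4:**
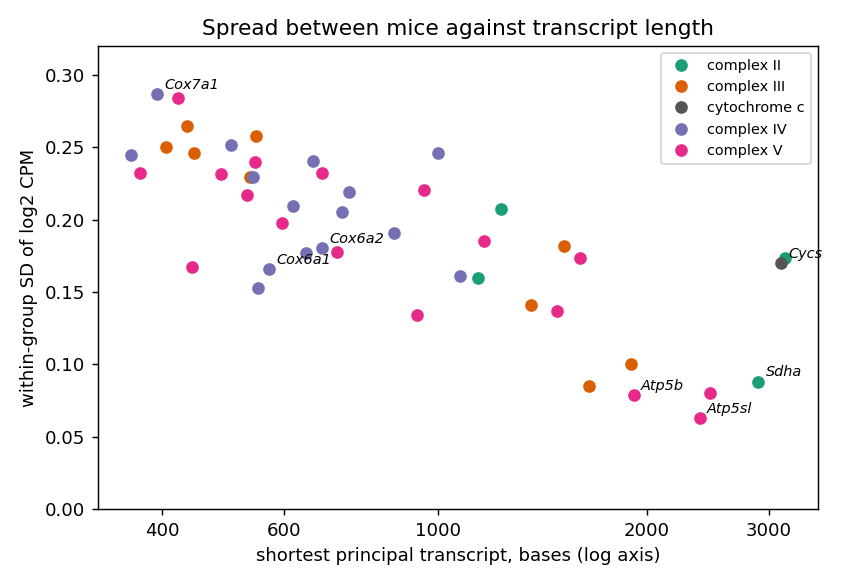
Within-group SD of log2 CPM against the length of the shortest principal transcript on a log axis, 1 point for each of 46 genes, coloured by complex. The SD falls from 0.29 for *Cox7a1* to 0.063 for *Atp5sl*.

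Other abundant genes with short transcripts were also high in saline 34 and ethanol 59 and low in saline 38 and ethanol 60. The order of the other libraries differed between the sets. Other abundant genes with longer transcripts did not show this, while the longer genes of these complexes did. The mean deviation of the 46 genes was 0.26 log2 units in saline 34, -0.24 in saline 38, 0.19 in ethanol 59 and -0.20 in ethanol 60. For 105 other genes at 100 CPM or more with transcripts under 800 bases these values were 0.24, -0.24, 0.13 and -0.20, and for 1284 longer ones they were -0.018, 0.024, -0.023 and -0.058. For 68 ribosomal protein genes they were 0.24, -0.25, 0.095 and -0.20, and for 36 complex I genes 0.26, -0.28, 0.24 and -0.20. Genes of complexes II to V at 100 CPM or more were also split by length. The 23 under 800 bases were at 0.34, -0.31, 0.25 and -0.28, and the 18 longer ones at 0.20, -0.18, 0.18 and -0.17. Over all tested genes with a length, the slope of log2 CPM on log2 length was -0.089 in saline 34 and 0.12 in saline 38, the extremes of the 10 libraries, and -0.053 in ethanol 59 and 0.048 in ethanol 60, the extremes within ethanol. The trend of each library on the length of the longest principal transcript was then removed, a step chosen after the data were seen. The median SD of the 46 genes went from 0.19 to 0.11. Their mean deviation became -0.082 in saline 34, 0.17 in saline 38, -0.037 in ethanol 59 and 0.018 in ethanol 60. With that trend removed, 0 of the 47 genes and 0 of all tested genes passed FDR 0.05 in edgeR. The 1 gene at an unadjusted p under 0.05 was *Cox6a1*, at 0.28 (edgeR unadjusted p = 0.00789). In the main fit 6.22% of all tested genes were higher at that threshold, and the share with the trend removed is not given here.

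**Figure D5:**
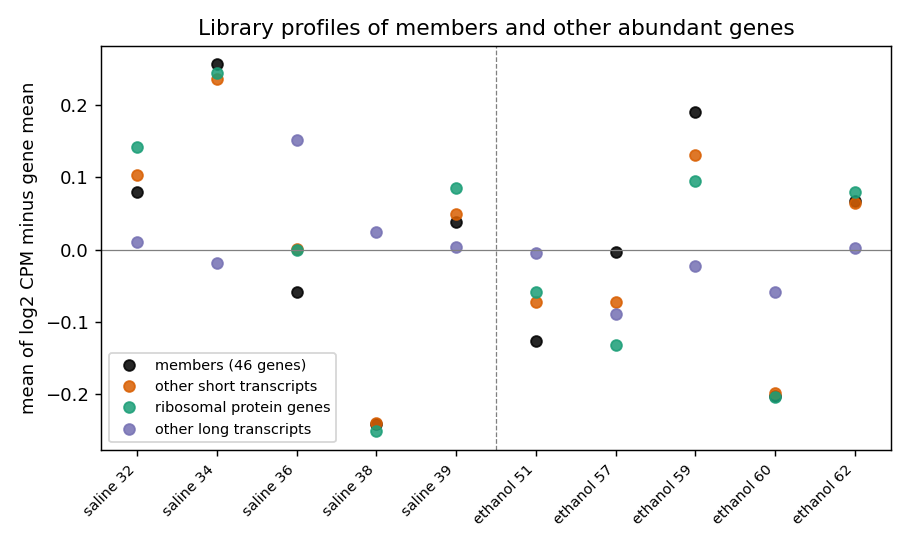
Mean deviation of log2 CPM from the gene mean in each library, for the 46 genes of complexes II to V and cytochrome c, for 105 other abundant genes with transcripts under 800 bases, for 68 ribosomal protein genes and for 1284 other abundant genes with longer transcripts. The first 3 sets lie together in saline 34 and 38 and in ethanol 60, apart from the longer transcripts.

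Of the genes listed below that work with these complexes, none passed FDR 0.05, against 0% of all tested genes. Of all tested genes, 6.22% were higher and 5.91% lower at an unadjusted p under 0.05 in edgeR, and 49.8% had negative fold changes. Of 36 tested genes of complex I, a list that keeps *Ndufa4* by its name although its protein is now placed in complex IV, 16 had positive and 20 negative fold changes, and 0 were at an unadjusted p under 0.05 in edgeR. Their smallest p was that of *Ndufa4l2* (0.18 ± 0.12, log2 ± SE), followed by *Ndufs4* (-0.15 ± 0.11) and *Ndufa4* (-0.13 ± 0.14). Of 37 assembly factor genes for complexes II to V, 23 were positive, 14 negative and 0 at an unadjusted p under 0.05. *Atpaf2*, which helps to assemble the F1 part of the ATP synthase, was at 24.4 ± 1.02 CPM with saline and 26.5 ± 1.18 CPM with ethanol (n = 5 each, ± SD), and the COX assembly genes *Coa4* and *Coa7* were at -0.21 ± 0.13 and 0.15 ± 0.097.

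The counts that follow stand beside the same shares of all tested genes. The 13 citric acid cycle genes had 4 positive and 9 negative fold changes and 0 at an unadjusted p under 0.05. *Dld*, a subunit shared by several dehydrogenases, was at -0.073 ± 0.068, fumarase (*Fh1*) at -0.082 ± 0.084 and *Idh3b* at -0.085 ± 0.094 (log2 ± SE). Of 9 genes of ATP export and energy transfer 2 were positive and 7 negative, again with 0 at an unadjusted p under 0.05. The voltage-dependent channel gene *Vdac3* was at -0.070 ± 0.074 and the ADP/ATP carrier gene *Slc25a5* at -0.060 ± 0.091. Of 20 transcription regulators of nuclear respiration genes 10 were positive and 10 negative, with 0 at an unadjusted p under 0.05. *Mef2a* was at -0.19 ± 0.11, the coactivator gene *Ppargc1b* at 0.52 ± 0.29 and *Yy1* at -0.15 ± 0.090, each with overlapping groups. Slow fibre genes, whose fibres are rich in mitochondria, had 3 positive and 5 negative values and summed levels of 1617 to 2145 CPM in saline and 1399 to 2028 CPM in ethanol. *Myh2*, the myosin of fast oxidative fibres, was at 2967 ± 270 CPM with saline and 3406 ± 706 CPM with ethanol (n = 5 each, ± SD; log2 fold change 0.20 ± 0.13, edgeR FDR = 0.553).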

How the data were processed

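The values deposited by the authors are raw counts of reads for each gene symbol in 10 libraries. The submitters' processing notes list mm10, TopHat2 and DESeq2 1.6.3 without saying what each did. The counter, its annotation and its strand setting were not given in the sources used, and many of these genes have processed pseudogenes, so how shared reads were split is unknown. In 27 rows a date had replaced the symbol; these stayed in the totals.

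Genes were kept by edgeR's filterByExpr (minimum count 10, minimum total 15), scaled by TMM and tested in edgeR 4.0.16 by its quasi-likelihood fit (robust, ethanol minus saline, Benjamini-Hochberg over all tested genes, R 4.3.3). SE is the log2 fold change over the square root of F. Log2 CPM carry a prior count of 2. Isoform ratios add 0.5 to each count and were compared by a two-sided exact permutation test, whose smallest possible p is 0.00794. Lengths, GC content and positions are from GENCODE M21 on GRCm38, which may not be the authors' annotation. The edgeR procedure was also run on simulated counts. There each gene varied independently, without GC or length trends, so that run does not cover differences between mice that genes share.

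Alternatives were DESeq2 1.42.0, limma-voom (limma 3.58.1), other scalings and filters, thinning, GC and length trends (lowess, span 0.3) and leaving out libraries. The members, the lists and the rule for named genes (isoforms; highest, lowest, smallest p and largest changes of each complex; members that are not subunits; the 3 smallest p of each other list) were chosen with earlier results of these data known. No batch is named in the labels. Depth was 20317959 to 42654771 counts per library, and p-values measure the spread between mice.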

Additional observations from a re-analysis of the deposited data

Results flagged for a closer look

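The log2 ratio of *Cox6a2* to *Cox6a1* in ethanol 59 was 4.89, against 4.44 to 4.54 in the other ethanol libraries, a gap larger than expected within a group of 5. It was the 1 flag among 110 groups of 5 examined in this way, where chance flags about 1 group in 20. Ethanol 59 held 32.7 CPM of *Cox6a1*, the lowest of its group, and 969 CPM of *Cox6a2*, the highest.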

How the results depend on the processing

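No gene of complexes II to V passed FDR 0.05 under any of the 20 alternatives to the main edgeR fit, and the 537 values of named genes under these alternatives stayed on the same side of the threshold, while 18 of the 27 named tested genes changed sign in at least 1 of them. Over all genes, 54 passed with DESeq2 and 0 in the main fit, and 0 to 1 with 1 library left out. The count of members higher at an unadjusted p under 0.05 was 1 in the main edgeR fit, against 6.22% of all tested genes. It was 0 with the GC trend removed or with saline 36 and ethanol 60 left out together. With 1 library left out it was 0 to 1. The count whose groups did not overlap was 0 in the main fit, against 2.18% of all tested genes. It was 1 after thinning and 0 to 1 with 1 library left out. That gene was *Cox6a1* in each case, without saline 39 or ethanol 59 among the libraries left out. The shares of all tested genes under these settings are not given here, so these counts are not read as a result. With 1 library left out, the difference in the *Cox6a2* to *Cox6a1* ratio ran from -0.31 to -0.18. Its adjusted p by exact permutation ran from 0.0476 to 0.405. It was past the threshold without ethanol 59, the library that overlapped saline, so that p gives no support. The median log2 fold change over the genes of a complex ran, with 1 library left out, from -0.055 to 0.064 for complex II, -0.12 to 0.017 for III, -0.094 to 0.037 for IV and -0.10 to 0.031 for V, and those of III, IV and V were positive without saline 34, as were those of IV and V without ethanol 60. For the 4 libraries apart from the rest, the cause was not tested. No paired analysis was possible because the mouse numbers of the groups do not overlap. Each group has 5 mice, and the intervals above state what that number and this depth allow.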

Other observations

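A pair of genes whose proteins belong to these complexes lie outside the symbols used here. *Ndufa4*, named after complex I and now placed in complex IV, was at 543 ± 101 CPM with saline and 498 ± 82.3 CPM with ethanol (n = 5 each, ± SD; log2 fold change -0.13 ± 0.14, edgeR FDR = 0.738). *Usmg5*, a small subunit of the ATP synthase, stood at 232 ± 45.8 and 218 ± 38.7 CPM (log2 fold change -0.091 ± 0.14, edgeR FDR = 0.834). Both groups overlapped for each gene.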
